A study of Mus musculus with 2 samples.

Results

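The 10 genes described here encode adhesion proteins of the intercalated disc, the junction that joins heart muscle cells end to end. They are the desmosomal genes Dsp, Jup, Pkp2, Dsg2 and Dsc2, the adherens junction genes Cdh2, Ctnna1 and Ctnna3, the armadillo gene Pkp4 and the scaffold gene Tjp1. They were picked by symbol out of 55536 annotated genes, 22028 of them protein-coding, and each symbol matched 1 gene. The samples were whole hearts of 2 male mice aged 25 days, both of the first-generation hybrid strain B6CASTF1/J, whose name stands for a C57BL/6J by CAST/EiJ cross. Total RNA was sequenced as 1 library per heart from 300 ng, with ERCC spike-in RNAs added. There was 1 group, with no treatment, second tissue or second age, so levels and the spread between the hearts are given and no group is compared with another. The labels call the libraries biological replicates 1 and 2 and number the animals 3 and 4, but give both the same donor identifier. Each value is from 1 library, and the spread between the hearts may be partly technical.

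In a desmosome, cadherins of the desmoglein and desmocollin families bind those of the next cell, and plakoglobin, plakophilin and desmoplakin couple their tails to desmin filaments. In an adherens junction, N-cadherin is coupled to actin through beta-catenin or plakoglobin and an alpha-catenin. In mammalian hearts the components of both junctions mix along the disc in what is called the area composita. Variants of the human genes for desmoplakin, plakoglobin, plakophilin 2, desmoglein 2 and desmocollin 2 are known in arrhythmogenic cardiomyopathy.

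Replicate 1 held 38253821 and replicate 2 held 40655101 estimated counts on genes, of which mitochondrial genes took 31.7% and 31.0%. Where no read was counted, a level of up to 3 counts remains possible, which is 0.0784 CPM (counts scaled to a fixed library total) in replicate 1 and 0.0738 CPM in replicate 2. All 8 cardiomyocyte markers were at 1 TPM or more in both hearts, with a median of 3599 TPM. TPM is an abundance per transcript length, with a fixed sum per library. Of 7 keratinocyte and epithelial markers 1 reached 1 TPM, the list summed to 1.94 and 2.38 TPM in replicates 1 and 2, and Krt5 and Krt1 were at 0. The hearts differed in RNA of markers of other cells: 5 erythroid markers summed to 46562 and 23411 TPM, and 6 adipocyte markers to 239 and 34.6 TPM. A first quantification, from an alignment to the transcriptome, gives the values below, and a second, made directly from the reads, is set beside it. Pairs of values are those of replicate 1 and then replicate 2, and ± is the SD over both (n = 2).

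Several members were annotated with transcripts that differ by a coding stretch or by a start site, and the sequences that tell these transcripts apart are printed here because the transcript results below rest on them. Coordinates are mm10. Desmoplakin has a long and a short form, known as desmoplakin I and II, which differ in the length of the central rod. The long transcript Dsp-201 includes 1797 coding bases (599 codons) at chr13:38191859-38193655 on the plus strand, and the short transcript Dsp-202 leaves the same exon before them. The stretch is in capitals with 30 bases of neighbouring exon in lower case on either side, and the short form joins those neighbours directly.
Dsp-201 start of stretch: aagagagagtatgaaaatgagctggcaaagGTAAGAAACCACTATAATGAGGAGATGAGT
Dsp-201 end of stretch: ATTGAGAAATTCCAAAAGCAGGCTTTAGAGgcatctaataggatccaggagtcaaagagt
Dsp-202 junction: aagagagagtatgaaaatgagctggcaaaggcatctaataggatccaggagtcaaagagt

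Tjp1 encodes ZO-1, and its transcript Tjp1-202 includes a coding exon of 240 bases (80 codons) at chr7:65314093-65314332 on the minus strand that Tjp1-201 skips. The exon encodes the alpha domain of ZO-1. Tjp1-201 instead includes a coding exon of 60 bases (20 codons) at chr7:65299670-65299729 that Tjp1-202 skips. Pkp4-202 includes a coding exon of 129 bases (43 codons) at chr2:59350494-59350622 on the plus strand that Pkp4-210 skips. The capitals are the whole exon in each case.
Tjp1-202 exon: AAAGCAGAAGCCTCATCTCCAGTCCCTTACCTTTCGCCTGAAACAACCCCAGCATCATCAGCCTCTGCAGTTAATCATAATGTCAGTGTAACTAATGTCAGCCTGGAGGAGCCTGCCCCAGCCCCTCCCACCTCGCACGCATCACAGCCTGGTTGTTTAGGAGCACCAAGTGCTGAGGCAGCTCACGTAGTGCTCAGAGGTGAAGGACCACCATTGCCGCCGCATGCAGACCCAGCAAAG
Tjp1-201 exon: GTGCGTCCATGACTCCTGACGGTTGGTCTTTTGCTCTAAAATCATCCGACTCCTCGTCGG
Pkp4-202 exon: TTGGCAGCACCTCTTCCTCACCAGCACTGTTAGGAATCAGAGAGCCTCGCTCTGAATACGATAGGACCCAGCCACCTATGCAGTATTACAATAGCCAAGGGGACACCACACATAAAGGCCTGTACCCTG

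Ctnna3 has annotated transcripts from different starts. RefSeq promoter entries (GRCm38.p6) matched 5 of the 10 members, Dsp, Jup, Pkp4, Ctnna3 and Tjp1. For Ctnna3, the 250 bases before the RefSeq start that matches Ctnna3-203 lie at chr10:63429848-63430097 and those before the one that matches Ctnna3-202 at chr10:63457261-63457510, both on the plus strand. The annotated first base of Ctnna3-202, 63457510, is the last base of its window. The starts are 27412 bases apart, and both transcripts have a coding sequence of 2685 bases. Capitals mark each CG dinucleotide, which reads the same on both strands.
Ctnna3-203 upstream: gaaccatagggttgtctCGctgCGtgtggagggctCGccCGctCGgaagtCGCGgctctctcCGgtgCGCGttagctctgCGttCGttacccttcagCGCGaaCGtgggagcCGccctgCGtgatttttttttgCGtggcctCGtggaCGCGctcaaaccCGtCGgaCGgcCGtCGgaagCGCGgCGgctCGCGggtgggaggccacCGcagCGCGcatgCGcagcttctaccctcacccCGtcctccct
Ctnna3-202 upstream: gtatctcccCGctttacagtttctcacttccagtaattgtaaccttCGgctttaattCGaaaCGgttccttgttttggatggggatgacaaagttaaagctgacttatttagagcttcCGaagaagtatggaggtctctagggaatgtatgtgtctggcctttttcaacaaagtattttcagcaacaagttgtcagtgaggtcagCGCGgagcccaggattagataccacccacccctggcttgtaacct

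The upstream window of Ctnna3-203 held 36 CG dinucleotides and 67.6% G and C, and that of Ctnna3-202 held 7 and 44.8%. Among the same windows of 32851 RefSeq starts, 2.58% held 36 or more and 46.3% held 7 or more. The median over those windows was 6.0, so the window of Ctnna3-202 is near the middle and that of Ctnna3-203 near the top. A further start, that of the processed transcript Ctnna3-205, had 1 CG in its window and 1.04% and 1.74% of Ctnna3 TPM.

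All 10 members were at 1 TPM or more in both hearts, against 49.5% of protein-coding genes. Their median was 53.1 TPM, against 8.13 TPM over the 10906 protein-coding genes at that level. Among those 10906 genes the members lay between the 62.0 percentile (Dsc2) and the 97.2 percentile (Ctnna1). In bulk tissue, fewer cells of a type and less RNA per cell cannot be told apart, so a level is that of the whole heart. CAST/EiJ reads can match a C57BL/6J-based assembly less well, and the effect of this on each gene was not tested.

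**Figure D1:**
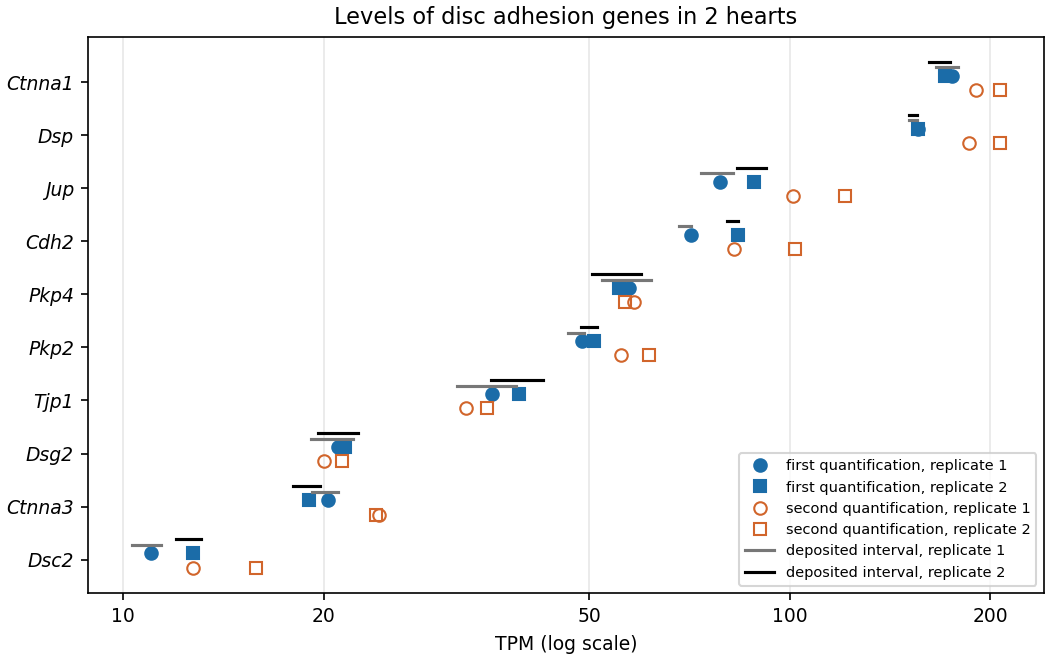
TPM on a log axis for each member in replicates 1 and 2, by the first quantification (filled points) and the second (open points), with the deposited interval of the first estimate in each heart (lines, around the posterior mean). Members run from Ctnna1 at 175 and 171 TPM to Dsc2 at 11.0 and 12.7 TPM in replicates 1 and 2.

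Among the desmosomal plaque genes, Dsp was the highest. Dsp (ENSMUSG00000054889.10, chr13:38151294-38198577, plus strand), which ties the plaque to desmin, was at 156 TPM in both hearts (156 ± 0.233, SD, n = 2), from 46009 and 49427 estimated counts. Jup (ENSMUSG00000001552.14, chr11:100368958-100397763, minus strand), plakoglobin, which serves both desmosomes and adherens junctions, was at 78.7 and 88.4 TPM (83.5 ± 6.85). The 2 hearts were further apart for Jup than for Dsp. Pkp2 (ENSMUSG00000041957.15, chr16:16213318-16272712, plus strand), an armadillo protein that links cadherin tails to desmoplakin, was at 48.7 and 50.9 TPM (49.8 ± 1.55). Dsp was at 3.20 and 3.06 times the TPM of Pkp2, and the hearts of the 2 genes did not overlap.

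The desmosomal cadherins, which span the membrane and bind the neighbouring cell, were lower than the plaque genes. Dsg2 (ENSMUSG00000044393.15, chr18:20558074-20604521, plus strand), the desmoglein of heart muscle, was at 21.0 and 21.5 TPM (21.2 ± 0.354). Dsc2 (ENSMUSG00000024331.11, chr18:20030633-20059554, minus strand), its desmocollin partner, was the lowest member, at 11.0 and 12.7 TPM (11.9 ± 1.22). Together they summed to 32.0 and 34.2 TPM, of which Dsg2 was 65.6% and 62.8%. Dsg2 was at 1.91 and 1.69 times Dsc2, and at 1.57 and 1.35 times in the second quantification. Over transcripts of 1000 bases or more in the first quantification, Dsg2 was at 1.22 and 1.03 times Dsc2, so the size of its excess depends on the measure. For each unit of the Dsg2 and Dsc2 sum there were 4.88 and 4.55 units of Dsp TPM. There were 2.46 and 2.59 units of Jup and 1.52 and 1.49 of Pkp2. In the second quantification the values were 5.68 and 5.57 for Dsp, 3.09 and 3.25 for Jup and 1.71 and 1.65 for Pkp2. Over the same longer transcripts they were 6.34 and 5.99, 2.38 and 2.52, and 2.00 and 1.97, in that order. These are ratios of RNA abundance and say nothing of protein.

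The adherens junction genes ran from 19.6 TPM (Ctnna3) to 173 TPM (Ctnna1) on average. Ctnna1 (ENSMUSG00000037815.7, chr18:35118859-35254779, plus strand), alpha-E-catenin, which links cadherin complexes to actin, was the highest member at 175 and 171 TPM (173 ± 3.03). Ctnna3 (ENSMUSG00000060843.11, chr10:63430098-65003667, plus strand), alpha-T-catenin, which also binds plakophilin 2, was at 20.3 and 19.0 TPM (19.6 ± 0.912). Ctnna3 thus made up 10.2% ± 0.265 of alpha-catenin TPM, and Ctnna1 nearly all the rest. By the second quantification the share of Ctnna3 was 11.3% and 10.4%. Cdh2 (ENSMUSG00000024304.14, chr18:16588877-16809246, minus strand), N-cadherin, the classical cadherin of the disc, was at 71.2 and 83.6 TPM (77.4 ± 8.74). Cdh2 was at 2.23 and 2.44 times the sum of Dsg2 and Dsc2, and the summed alpha-catenins were at 2.74 and 2.27 times Cdh2. In the second quantification the ratio of Cdh2 to that sum was 2.53 and 2.73, and that of alpha-catenins to Cdh2 2.59 and 2.27. Over transcripts of 1000 bases or more in the first quantification they were 2.92 and 3.23, and 2.00 and 1.71.

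Pkp4 (ENSMUSG00000026991.20, chr2:59160850-59355208, plus strand), an armadillo protein closer to p120-catenin than to plakophilin 2 and found at both kinds of junction, was at 57.3 and 55.5 TPM (56.4 ± 1.31). Tjp1 (ENSMUSG00000030516.14, chr7:65296165-65527781, minus strand), the scaffold ZO-1 that binds connexin 43 and alpha-catenin, was at 35.8 and 39.3 TPM (37.5 ± 2.53). These genes had the widest deposited intervals within a library, 19.2% of the posterior mean for Tjp1 and 17.1% for Pkp4, against 2.55% for Dsp.

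By mean TPM the order was Ctnna1, Dsp, Jup, Cdh2, Pkp4, Pkp2, Tjp1, Dsg2, Ctnna3 and Dsc2. The hearts of neighbouring genes were separate at 8 of the 9 steps, and Jup and Cdh2 overlapped. At 2 more steps the deposited intervals overlapped: those of Pkp4 spanned 50.5 to 61.9 TPM and those of Pkp2 46.4 to 51.4, and those of Dsg2 spanned 19.1 to 22.5 and those of Ctnna3 18.0 to 21.0. The second quantification turned both of these steps round, with Pkp2 at 58.6 and Pkp4 at 57.4 TPM and Ctnna3 at 24.1 and Dsg2 at 20.6 TPM on average. Neighbours were separate there at 6 of the 9 steps, and Ctnna1, at 190 and 207 TPM, overlapped Dsp, at 186 and 207 TPM. Summed over transcripts of 1000 bases or more alone, Dsp (155 TPM) also passed Ctnna1 (123 TPM) and Cdh2 (77.4 TPM) passed Jup (61.7 TPM). Tjp1 and Dsg2 averaged 21.9 and 13.3 TPM by that measure, the largest changes in proportion. Ctnna1 and Jup had 28.8% and 26.1% of their TPM on shorter transcripts.

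Which relatives of each member the heart also held was asked over 27 pairs of a member and a gene of its family. The member had the higher TPM in both hearts in 25 pairs, and the relative in 2. In the pairs Ctnna1 with Ctnna3 and Pkp2 with Pkp4 both genes are members, and the gene listed first was counted as the member. How these pairs enter the counts thus depends on that order: Ctnna1 with Ctnna3 counts for the member and Pkp2 with Pkp4 for the relative. In 17 of the 25 the relative was under 1 TPM, which leaves 10 pairs of genes both at 1 TPM or more, 8 with the member higher and 2 with the relative higher. Ratios are on the log2(TPM + 0.1) scale, and those over nearly silent genes are understated.

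**Figure D2:**
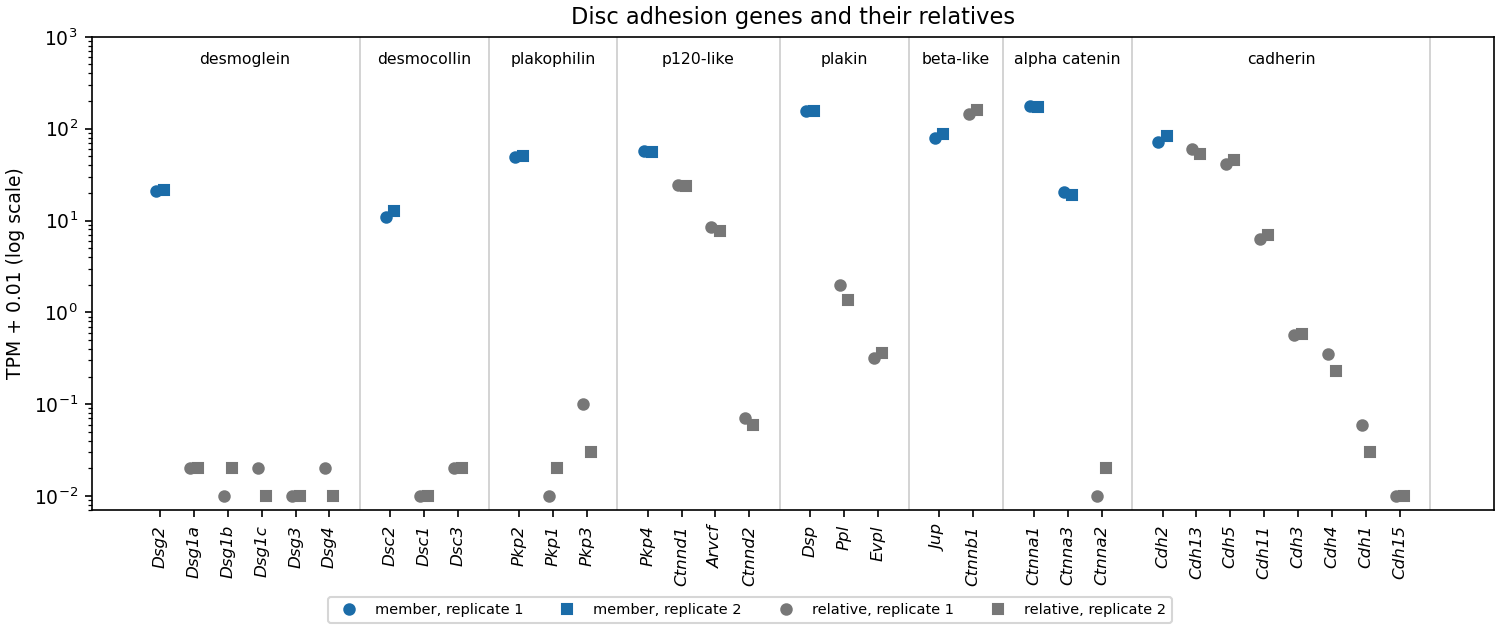
TPM + 0.01 on a log axis for members and relatives by family, in replicates 1 and 2. Dsg2, Dsc2 and Pkp2 stand above 10 TPM in both hearts while the relatives in their panels stay at or below 0.0900 TPM, and Ctnnb1, at 146 and 161 TPM, stands above Jup.

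The desmogleins, desmocollins and plakophilins of stratified epithelia were nearly absent. Dsg1a, Dsg1b, Dsg1c, Dsg4, Dsc3, Pkp1 and Pkp3 had 0 to 2 estimated counts per heart, and Dsg3 and Dsc1 had 0 in both, where up to 3 counts are allowed. Dsg2 was 99.9% of desmoglein TPM, Dsc2 99.9% of desmocollin TPM, and Pkp2 99.8% and 99.9% of the TPM of plakophilins 1 to 3, in replicates 1 and 2. Of 12 genes of the epithelial desmosome 2 were at 1 TPM or more in both hearts. Perp, a membrane protein of epithelial desmosomes, was at 42.2 and 46.6 TPM, and Ppl, periplakin, at 1.98 and 1.37 TPM. Ppl was far below its fellow plakin Dsp, at a log2 ratio of Dsp over Ppl of 6.48 ± 0.35, and envoplakin, Evpl, was at 0.310 and 0.350 TPM.

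By gene TPM in the first quantification, the relatives above Jup and Pkp2 were Ctnnb1 and Pkp4. Ctnnb1, beta-catenin, the closest relative of plakoglobin and its counterpart in adherens junctions, was at 146 and 161 TPM, so that Jup was 35.1% and 35.4% of the 2 genes' TPM. The log2 ratio of Jup over Ctnnb1 was -0.88 ± 0.02, and -0.66 ± 0.02 in the second quantification. Pkp2 over Pkp4 was -0.18 ± 0.08, but 0.03 ± 0.13 in the second quantification, so the direction of this pair depends on the quantification. Jup and Ctnnb1 summed to 224 and 249 TPM, which was 1.15 and 1.31 times the alpha-catenin sum of 195 and 190 TPM.

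Pkp4 stood above the other genes of the p120 group. Ctnnd1, p120-catenin, which stabilises cadherins at the membrane, was at 24.1 and 23.8 TPM, at a log2 ratio of Pkp4 over Ctnnd1 of 1.23 ± 0.02. That ratio was 0.93 ± 0.03 in the second quantification and 0.99 over transcripts of 1000 bases or more in the first. Arvcf was at 8.56 and 7.77 TPM, a log2 ratio of 2.77 ± 0.06, and the neural Ctnnd2 at 0.0600 and 0.0500 TPM. Much of the Pkp4 level was on transcripts not annotated as protein coding, as given below.

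Other cadherins were present beside Cdh2. Cdh13, T-cadherin, which has no cytoplasmic tail, was at 60.5 and 52.5 TPM, and Cdh5, the endothelial cadherin, at 40.9 and 45.3 TPM. The log2 ratio of Cdh2 was 0.45 ± 0.31 over Cdh13 and 0.84 ± 0.06 over Cdh5, the least separate pairs with the member higher. In the second quantification these ratios were 0.68 ± 0.43 and 0.38 ± 0.08, so which of them is smaller depends on the quantification. Cdh11, a mesenchymal cadherin, was at 6.26 and 6.96 TPM, a log2 ratio of 3.53 ± 0.06. The epithelial Cdh1 had 4 and 3 counts, and muscle Cdh15 had 0 in both hearts. All 8 endothelial markers, of which Cdh5 is one, were at 1 TPM or more and summed to 229 and 250 TPM, and the part of such cells in the Cdh5 and Cdh13 levels was not tested.

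Ctnna1 over Ctnna3 was 3.13 ± 0.04 on the log2 scale, and the neural Ctnna2 had 0 and 1 counts. The ratio of Ctnna1 over Ctnna3 was 3.04 ± 0.10 in the second quantification and 2.67 over transcripts of 1000 bases or more in the first. Tjp3, a relative of Tjp1, had 3 and 2 counts, at a log2 ratio of Tjp1 over Tjp3 of 8.23 ± 0.18.

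The members were set beside 24 other genes of the disc, chosen for their place there but with earlier results of these data known. All 24 were at 1 TPM or more in both hearts, against 49.5% of protein-coding genes. Their median was 45.4 TPM, against 53.1 TPM for the members. The highest were Des, the desmin that desmoplakin anchors, at 441 and 463 TPM, Sorbs2, an adaptor of the disc and Z-disc, at 153 and 205 TPM, and Popdc2, a cyclic AMP-binding membrane protein, at 160 and 186 TPM. Arvcf, already given, was among the lowest. The 10 genes of other cadherins and catenins had a median of 0.168 TPM, with 3 of the 10 at 1 TPM or more.

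The 2 hearts differed little in the members. Estimated counts scaled by TMM factors were compared as log2 of replicate 2 over replicate 1, with an exact binomial 95% interval that covers counting error only, since 1 library per animal allows no test. None of the 10 members differed by 2-fold or more, a size reached by 1.21% of the 12913 genes compared. The median absolute log2 ratio was 0.07 for the members and 0.12 over all genes compared. The genes compared reach down to a mean of 1 CPM, where counting error is larger than for the members, each at 1562 counts or more. Neither comparison was matched for depth, so they do not show that the members are more alike than other genes.

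**Figure D3:**
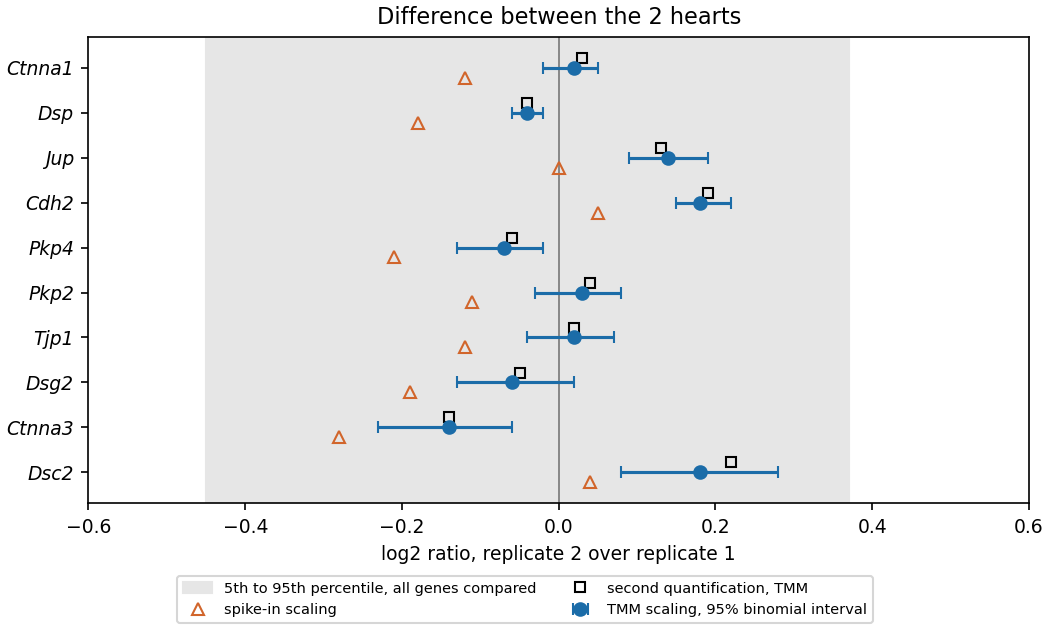
Log2 ratio of replicate 2 over replicate 1 for each member, with the 95% binomial interval of the TMM-scaled ratio (bars), the ratio under spike-in scaling (triangles) and in the second quantification (squares). The grey band is the 5th to 95th percentile of all genes compared, -0.45 to 0.37, and holds every member.

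Cdh2 and Dsc2 had the largest ratios, 0.18 (0.15 to 0.22) and 0.18 (0.08 to 0.28), followed by Jup at 0.14 (0.09 to 0.19). Ctnna3 was lower in replicate 2 by the same measure, at -0.14 (-0.23 to -0.06), and so were Pkp4 at -0.07 (-0.13 to -0.02) and Dsp at -0.04 (-0.06 to -0.02). Dsp was at 0.02 when scaled by total counts alone, so its direction depends on the scaling. Ctnna1, Pkp2, Tjp1 and Dsg2 had intervals that included 0. In the deposited TPM intervals, Jup, Cdh2 and Dsc2 were higher in replicate 2 without overlap, 3 of 10, against 7.89% of the genes compared. None was lower without overlap, against 5.06%. Intervals narrow with depth: of the 2392 genes with a mean count of at least 1761, that of Dsc2, 22.4% were apart with replicate 2 higher and 10.8% with it lower.

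Scaling by the spike-ins put the median of all genes at -0.13 and of the members at -0.12, and left Jup at 0.00, Cdh2 at 0.05 and Dsc2 at 0.04. A change of scaling moves every member by the same amount. The other disc genes had a median log2 ratio of 0.12, with 19 of 24 above 0, against a median of 0.02 and 6 of 10 for the members. Of all 12913 genes compared, 6530 were above 0, at a median of 0.00. Sorbs2 was at 0.34 (0.31 to 0.37), Popdc2 at 0.17 (0.13 to 0.21) and Des at 0.04 (0.02 to 0.06). Cardiomyocyte markers had a median of 0.03, erythroid markers -1.02 and adipocyte markers -2.65. The part of these other cells in the small ratios of the members was not tested.

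The first quantification named the same leading transcript in both hearts for 9 of 10 members, against 88.3% of 10018 protein-coding genes with several transcripts. A single transcript held over 50% of the gene's TPM in both hearts for 6 of 10, against 64.2%. Both hearts and both quantifications named the same leading transcript for 8 of 10, against 66.4%. The members that differed were Cdh2, where 2 transcripts were nearly level, and Pkp4.

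Pkp2 had the most uniform output, with Pkp2-201 at 97.0% and 97.6% of its TPM, and 96.8% and 97.5% in the second quantification. Jup-201 held 70.6% and 72.8% of Jup, and 51.8% and 51.2% in the second quantification. The non-coding Jup-205, of 502 bases, held 18.3% ± 1.86 by the first quantification but 0 by the second, which put 30.3% and 32.6% on another short non-coding transcript, Jup-203. The total on non-coding Jup transcripts was thus 27.2% ± 0.0964 and 33.2% on average, on different transcripts.

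For Dsp, the 1797-base rod stretch was in 78.1% and 77.2% of the TPM of the 2 transcripts that span it in the first quantification, and in 94.8% and 95.8% in the second. The long form was higher than the short form in both hearts by both. The short transcript Dsp-202 was at 33.9 and 35.3 TPM in the first quantification. The size of its share differed by more between the quantifications than between the hearts.

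**Figure D4:**
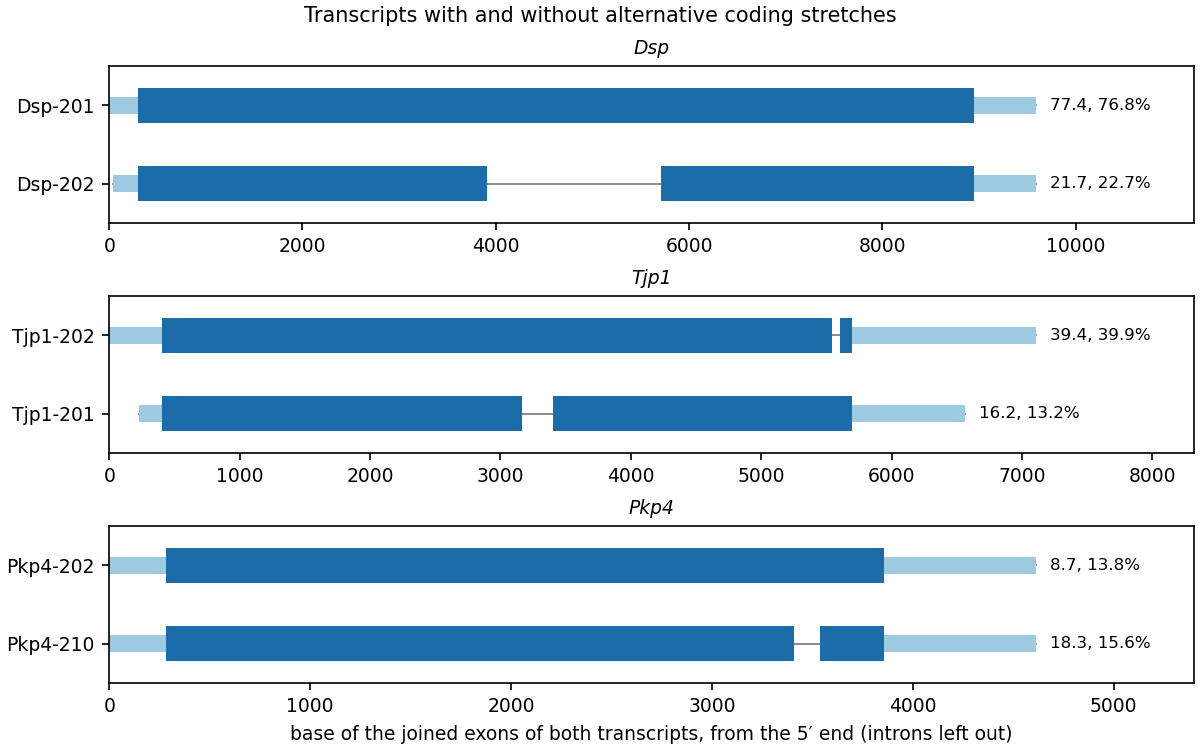
Exons of pairs of transcripts of Dsp, Tjp1 and Pkp4, joined with introns left out, in bases from the 5′ end. Dark boxes are coding and pale boxes untranslated, gaps are stretches that a transcript lacks, and the percents are its share of the gene's TPM in replicates 1 and 2 (77.4 and 76.8% for Dsp-201).

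Tjp1-202, with the alpha domain exon and without the 60-base exon, held 39.4% and 39.9% of Tjp1, and Tjp1-201 16.2% and 13.2%. Of the transcripts that span the alpha domain exon, 65.4% and 70.5% of TPM included it, and 46.5% and 49.3% in the second quantification. The 60-base exon was in 44.5% and 39.8%, and in 58.3% and 55.8% in the second quantification. Both quantifications gave a mixture, and over all spanning transcripts they named different majority forms at each exon. That measure counts the processed transcript Tjp1-203 as having the 60-base exon. Between Tjp1-202 and Tjp1-201 alone, Tjp1-202 held 70.8% and 75.1% by the first quantification and 50.5% and 52.1% by the second. Tjp1-202 was thus the higher of this pair in both hearts by both, though nearly level with Tjp1-201 in the second. Short transcripts with no coding sequence, Tjp1-204 and Tjp1-203, held 20.6% and 28.1%, and 19.1% and 15.3%, and Tjp1-204, a retained intron of 385 bases, was at 0 in the second quantification.

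Pkp4 was the member with the largest share on transcripts of classes other than protein coding, 69.6% and 67.8%, and 54.3% and 48.0% in the second quantification. Its leading transcript was Pkp4-209, of 2505 bases and with no annotated coding sequence, at 29.5% ± 0.660. The second quantification instead led with the coding Pkp4-202, at 26.6% and 35.7%, against 8.67% and 13.8% in the first. Pkp4-210 held 18.3% and 15.6%, Pkp4-207 12.8% and 12.1% and Pkp4-213, annotated as a target of nonsense-mediated decay, 11.2% and 9.21%. Pkp4-212, of 428 bases, held 9.14% and 10.1%. The 129-base exon was in 69.7% and 75.7% of the spanning TPM by the first quantification and 73.8% and 78.2% by the second, a measure that counts Pkp4-209 as a transcript with the exon. Between Pkp4-202 and Pkp4-210 alone, the share with it was 32.2% and 47.0% by the first and 63.2% and 70.2% by the second, so the majority form of this pair depends on the quantification.

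**Figure D5:**
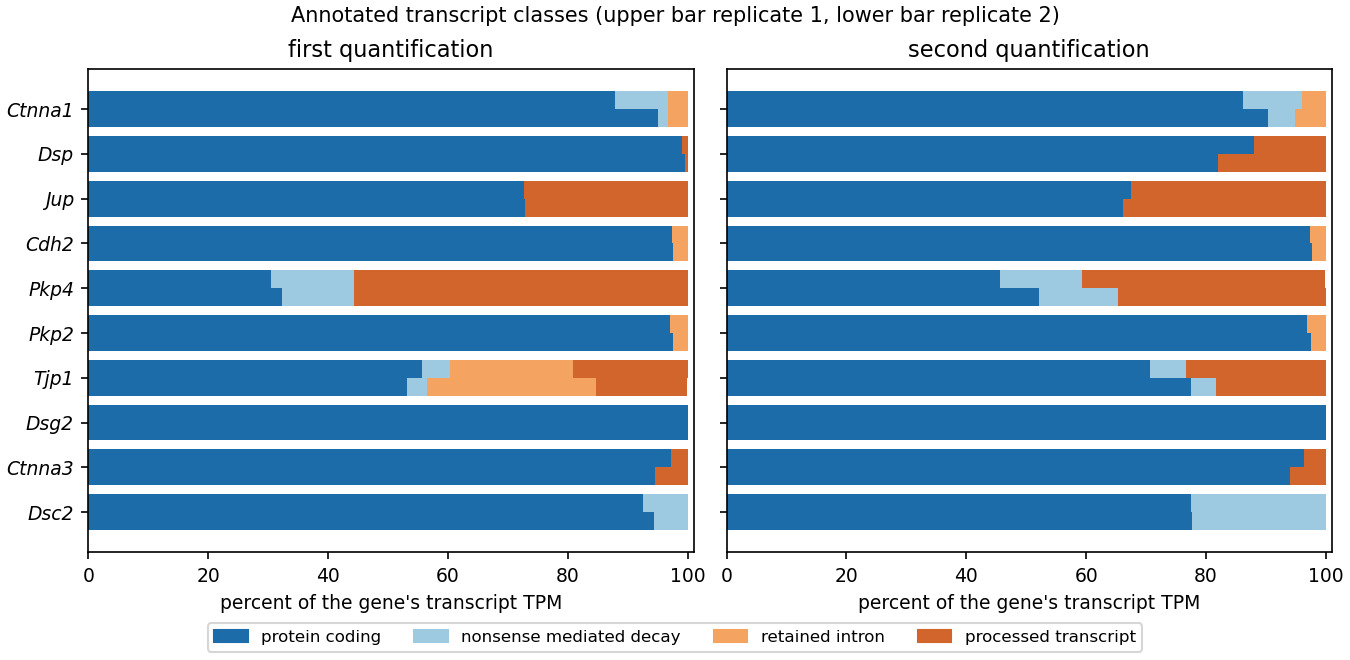
Percent of each member's transcript TPM on each annotated class, in replicate 1 (upper bar) and replicate 2 (lower bar), by the first quantification (left) and the second (right). In the left panel Pkp4 and Tjp1 have the most on classes other than protein coding, 68.7% and 45.6% on average, and in the right panel Pkp4 and Jup do, 51.1% and 33.2%, while Dsg2 has 0 in both.

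Dsg2-201, the full-length transcript, held 62.6% and 60.2% of Dsg2, and Dsg2-203, of 953 bases with 876 coding, 36.0% and 38.8%. In the second quantification Dsg2-203 held 18.9% and 21.8%. Dsc2 has an a and a b form, which differ in the cytoplasmic tail. Dsc2-202, with 2706 coding bases, held 51.5% and 48.0%, and Dsc2-201, with 2544, held 38.2% and 44.3%. By the second quantification Dsc2-202 held 56.0% and 48.7%, Dsc2-201 18.8% and 27.1%, and Dsc2-203, annotated as a target of nonsense-mediated decay, 22.6% and 22.5%, against 7.45% and 5.57% of Dsc2-203 by the first. A 46-base exon that ends the reading frame early separates the 2 forms. It was in 48.5% and 52.0% of spanning TPM, and in 44.0% and 51.3% in the second quantification. Dsc2-203 and Dsc2-204 are counted there among the transcripts that have it. Between Dsc2-201 and Dsc2-202 alone, the share with the exon was 42.6% and 48.0% by the first and 25.1% and 35.7% by the second.

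Cdh2-201, with 2718 coding bases, held 49.0% and 47.5% of Cdh2, and Cdh2-202, with 2547, held 48.3% and 50.1%. All 4 shares lay between 47.5% and 50.1%, and the leading transcript was not the same in both hearts. By the second quantification Cdh2-201 led in both, with 51.1% and 51.5%, against 46.3% and 46.2% for Cdh2-202. Ctnna1-201 held 57.5% and 67.2% of Ctnna1. Ctnna1-208, a coding fragment of 519 bases, held 27.9% and 25.2% by the first quantification but 0 by the second, which put 27.3% and 27.1% on Ctnna1-204.

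Ctnna3-202, with 7 CG dinucleotides in its upstream window, held 89.5% and 89.7% of Ctnna3 by the first quantification and 70.2% and 69.3% by the second. Ctnna3-203, with 36, held 7.74% and 4.80% in the first and 26.1% and 24.7% in the second. The deposited intervals of Ctnna3-203 spanned 0.0864 to 2.60 TPM in replicate 1 and 0.0906 to 2.01 TPM in replicate 2, so its level was poorly determined, while its place below Ctnna3-202 held in both hearts and both quantifications. RNA from a start is not a measure of the promoter itself.

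The share on transcripts of classes other than protein coding takes in targets of nonsense-mediated decay, which have an annotated coding sequence, beside retained introns and processed transcripts. Over the 10 members its median was 5.32% by the first quantification and 13.4% by the second, against 9.19% and 10.9% over the 10018 genes. Dsp, Cdh2, Pkp2, Dsg2 and Ctnna3 were each below 5% on average in the first quantification. Dsp averaged 14.9% in the second, all of it on Dsp-203, a processed transcript of 534 bases. Other genes overlap 6 of the members. Gm16090 and Gm15485, antisense to Dsg2 and Cdh2, Lrrtm2 at Ctnna1, Lrrtm3, Gm10118 and Gm23854 at Ctnna3 and Gm10129 at Dsp lie on the opposite strand, and Gm44792, Gm44794 and Gm44795 overlap Tjp1. Whether the counting used strand is not given in the sources used here, so reads of such partners cannot be told apart from the member's.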

How the data were processed

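Estimated counts and TPM per gene, with posterior mean TPM and interval bounds, were deposited by the authors, 1 table per heart. The upper bounds, deposited by the authors and not summing to a fixed total, are a score on the TPM scale. Estimated counts, TPM and each transcript's percent were deposited in a first transcript table, and estimated counts and TPM in a second. Per the text files deposited with them, assembly mm10 and annotation GENCODE M21 were used, and the first came from a transcriptome alignment, the second from a read file. The column names are those of RSEM and kallisto, but which tools and settings made them is not given in the sources used here.

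All 121 symbols of the members, lists and pairs were matched to 1 gene each through the transcript identifiers. The members and lists were chosen with earlier results of these data known. Transfer RNA rows (26248) and spike-in rows (97) were left out of library sizes. Ratios of TPM used a pseudocount of 0.1, levels a minimum of 1 TPM, and ratios between hearts counts rounded to whole numbers, a minimum mean of 1 CPM and TMM factors (edgeR 4.0.16, R 4.3.3). Alternatives used DESeq2 1.42.0 size factors, spike-in totals, total counts, no filter, another pseudocount, the second quantification, posterior means, either heart alone and, chosen after seeing the data, transcripts of 1000 bases or more. The alternative coding stretches were also chosen after seeing the data. A stretch's percent is over transcripts that span it. All members are named, with their transcripts at 10% or more in a heart or leading in either table, and of each list the 3 highest and 2 lowest genes, those at 0 and the relatives in pairs, except 1 gene that is not reported here. No p is given, since 0.5 (two-sided) is the smallest that 2 hearts allow in an exact sign-flip test. Reads carry no molecular identifiers and are not independent molecules, so intervals and floors measure counting error only. Scripts used pandas 2.3.3, numpy 2.4.6, matplotlib 3.10.9 and scipy 1.17.1 in Python 3.11.15.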

Additional observations from a re-analysis of the deposited data

How the results depend on the processing

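Of 52 alternative values of the main results, 46 were classed as the same as the main value and 6 as moved. Most of the 52 are counts, which have no spread between the hearts. The 46 include some that changed, such as neighbours separate at 6 steps in the second quantification, in place of 8. Some could not change, such as members at 10 TPM or more, where the lowest value was 11.0. Values from either heart alone are also among the 46, which thus do not measure stability. Counted over pairs with both genes at 1 TPM or more, the gene taken as the member was higher in 8 of 10, in place of 25 of 27. The median log2 ratio of the members between the hearts was -0.12 with spike-in totals, where the median of all genes was -0.13. The median share on classes other than protein coding was 13.4% in the second quantification, and 5.23% to 5.25% with either heart left out. With a minimum of 10 TPM in place of 1, the epithelial desmosome list had 1 gene that passed in both hearts, in place of 2. Pkp2 over Pkp4, -0.18 on the log2 scale, was 0.03 in the second quantification and 0.26 over transcripts of 1000 bases or more. Of 185 alternative values of single genes and pairs, 110 stayed within the spread between the hearts, 73 moved beyond it and these 2 reversed. The cause was not tested. The 110 include levels and pair ratios from either heart alone. Those are the values that define the spread, so they could not fall outside it and do not measure stability. Levels over nuclear protein-coding genes alone have another total and so are higher for every member. No paired analysis was possible because there is 1 group. Depth limits the relatives with a few counts.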
